A study of Mus musculus with 8 samples.

Results

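The proteasome genes examined here were the protein-coding genes whose symbols consist of Psm, a letter from a to g and a number. The rule picked 47 of the 24451 genes in the deposited expression table, and all 47 passed the filter on low values (size-factor-scaled reads averaging 5 or more across the 8 livers) that left 15352 genes for testing. They comprised 44 subunits, assembly chaperones, activators and regulators of the standard proteasome, including the testis subunit Psma8, and the 3 catalytic subunits of the immunoproteasome, Psmb8, Psmb9 and Psmb10. Psmb11, the thymus subunit, was not analysed here. The RNA-seq libraries came from the left liver lobe of male C57BL/6 mice aged 18 weeks and fasted for 6 h, with 4 livers per group. Brap LKO mice carried 2 floxed Brap alleles, in which loxP sites flank exons 2 and 3, and an Albumin-Cre transgene, which is active in hepatocytes rather than in every liver cell. Brap F/F controls carried the same floxed alleles without Cre, so a group with unmodified Brap alleles or with Cre alone was not part of the comparison. The question was how loss of hepatic BRAP, an E3 ubiquitin ligase, changed the liver transcriptome.

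Cells mark proteins for destruction with chains of ubiquitin, and the proteasome unfolds and cuts the marked proteins. Its core particle is a barrel of alpha rings, which gate the entrance, and beta rings, which hold the caspase-like, trypsin-like and chymotrypsin-like cutting sites. The regulatory particle caps the barrel with a base, whose ATPases pull the substrate in, and a lid, which removes the ubiquitin. Interferon-stimulated cells exchange the constitutive catalytic subunits for immunoproteasome subunits, which favour peptides suited to MHC class I, and the transcription factor NRF1 (Nfe2l1) is known to raise the constitutive genes when proteasome activity is short.

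Each library held between 26280884 and 33313914 reads assigned to genes. Values are read counts divided by the size factor of the liver, called normalized counts below. Brap itself measured 4042, 4203, 4065 and 3641 normalized counts across Brap LKO replicates 1 to 4 and 4410.2, 4235, 3994 and 4106 across Brap F/F replicates 1 to 4, with a log2 fold change of -0.071 (limma adjusted p = 0.631). A gene-wide count includes the exons that Cre leaves in place, so it did not check the labels. All hepatocyte markers examined, led by Alb, were abundant in every library. In bulk liver, fewer cells of a type and less RNA per cell cannot be told apart.

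None of the 47 proteasome genes passed an adjusted p of 0.05 by limma, against 0.664% of all tested genes called higher in Brap LKO and 0.104% called lower. The lowest adjusted p belonged to Psmd9, at 0.138. At an unadjusted p under 0.05, 15 proteasome genes were lower in Brap LKO and 0 were higher, beside 6.59% of all tested genes lower and 9.23% higher. The count test of edgeR called 0 of the 47 at the adjusted threshold, beside 122 of all tested genes, and 13 at the unadjusted one, all lower. DESeq2 called 1 at the adjusted threshold, Psmd9, which was lower, beside 1.13% called lower of the 15049 genes with an adjusted p. At the unadjusted threshold it called 15, all lower. The shares of all genes that edgeR and DESeq2 call at the unadjusted threshold are not reported here, and the limma shares do not stand in for them. In 14 proteasome genes every Brap LKO liver lay below every Brap F/F liver, which 4.39% of all tested genes did. In 0 proteasome genes did every Brap LKO liver lie above every Brap F/F liver, against 5.48% of all tested genes. These counts depended on scaling. They were counted again, after seeing the data, with every liver scaled to the same total of reads. Then 1 proteasome gene, Psmd9, had every Brap LKO liver below every Brap F/F liver (0.658% of all tested genes), and 14.2% of all tested genes had every Brap LKO liver above.

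The estimates were small and mostly negative. Among the 44 genes outside the immunoproteasome, 40 had a log2 fold change below 0, with a median of -0.14, although under scaling to the same total per liver only 16 did and the median was 0.022. All tested genes had a median of -0.010, with 52.0% below 0. Same-total scaling moved that median to 0.15, and relative to it 40 of the 44 genes were again lower, with a median difference of -0.12. Abundant genes as a class leaned the same way. Of the 6217 tested genes with a mean of at least 500, a comparison chosen after seeing the data, 67.3% were below 0, with a median of -0.060. Quantile normalization left 38 of the 44 genes below 0 and 33 below the median of all genes, with a median of -0.084.

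Brap LKO replicate 1 stood apart within its group. It had the lowest value of the 8 livers in 31 of the 44 genes, whereas it was lowest in 13.6% of all tested genes and in 19.8% of those with a mean of at least 500. Brap LKO replicate 4 was lowest in 9 genes, Brap F/F replicate 3 in 2, and Brap F/F replicates 2 and 4 in 1 each. The mean deviation of the 44 genes from their 8-liver mean was -0.15, -0.037, -0.0094 and -0.047 on the log2 scale in Brap LKO replicates 1 to 4, and 0.10, 0.045, -0.010 and 0.11 in Brap F/F replicates 1 to 4. By this mean, which includes Psma8 with its few reads, Brap F/F replicate 3 overlapped the Brap LKO livers. By the median deviation the groups did not overlap. It was -0.20, -0.033, -0.032 and -0.0038 in Brap LKO replicates 1 to 4. In Brap F/F replicates 1 to 4 it was 0.12, 0.054, 0.025 and 0.077. Without Brap LKO replicate 1 the median log2 fold change was -0.094, 38 of the 44 genes were below 0, and the count at an unadjusted p under 0.05 was 5 instead of 15. Without Brap F/F replicate 2 that count was 7. The shares of all tested genes at that threshold in these smaller fits are not reported here. How far the drop in count concerns the proteasome genes therefore cannot be judged. Under same-total scaling Brap LKO replicate 1 was lowest in 15 of the 44 genes, beside 3.82% of all tested genes, and Brap F/F replicates 2 and 3 were lowest in 11 each, beside 28.8% and 20.3%.

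**Figure D1:**
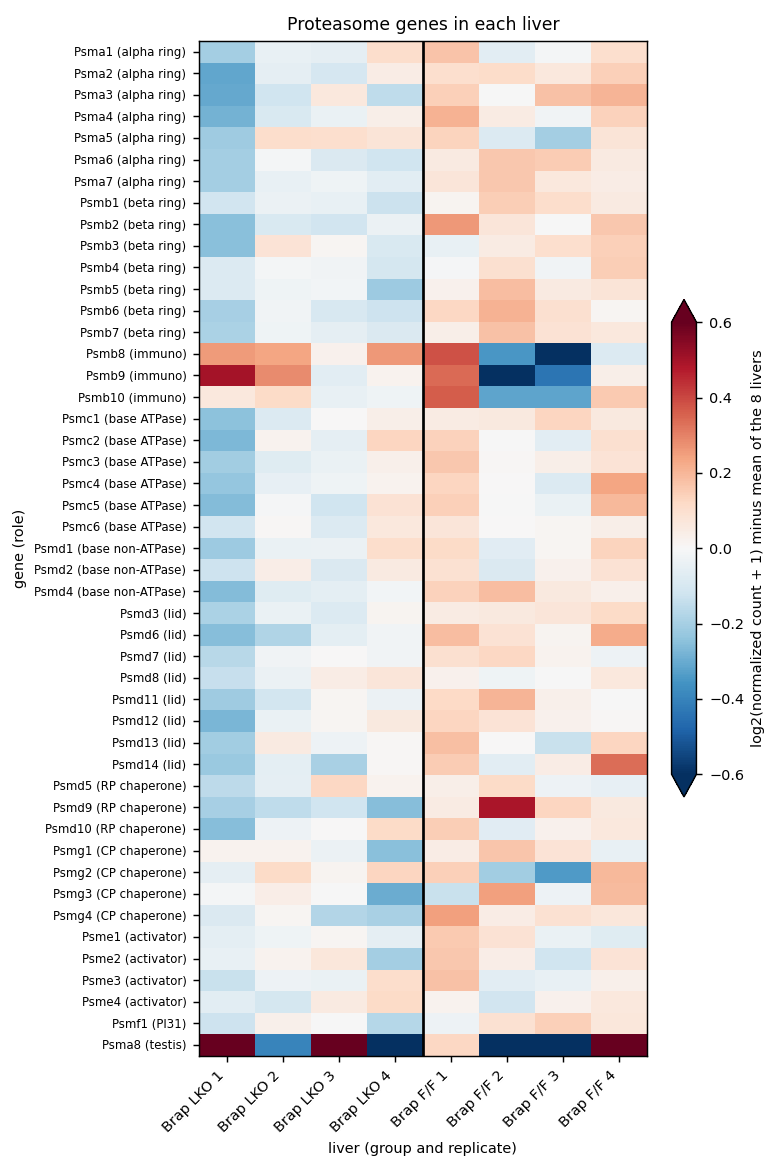
Each row is 1 of the 47 proteasome genes, grouped by role, and each column 1 liver, with colour giving log2(normalized count + 1) minus the mean of the 8 livers and saturating at 0.6 in either direction. Brap LKO replicate 1 is lowest in 31 of the 44 rows outside the immunoproteasome (15 under scaling to the same total per liver), while the rows of Psmb8, Psmb9 and Psmb10 are red in Brap F/F replicate 1 and blue in Brap F/F replicates 2 and 3.

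Levels were compared between genes per kilobase of transcript. In Brap F/F livers the beta subunit Psmb6 was highest, at 3773 normalized counts per kilobase, followed by Psma7 (2721), Psmb4 (2649) and Psmb7 (2419). The alpha ring spanned 211 to 2721 normalized counts per kilobase, the beta ring 609.95 to 3773, the base ATPases 1018 to 1909 and the lid 833 to 2159.7. Subunits present in equal number in the finished particle differed widely in transcript level, most of all in the alpha ring, where Psma5 (211) and Psma3 (243) were lowest. These levels depend on the transcript chosen, which was 1239 bases long for Psma5 and 2846 for Psma3. Assembly chaperones measured 185 to 621 for those of the base and 197 to 476 for those of the core particle, a range that overlapped the lowest alpha and beta subunits. The immunoproteasome subunits Psmb8, Psmb9 and Psmb10 measured 439, 289 and 633 normalized counts per kilobase. Psma8, which replaces Psma7 in the testis, was lowest of all at 6.40. Processed pseudogenes of Psma5 and Psmb6 held at most 4 reads in any liver. How reads matching several copies were counted is not given in the sources used here, so levels of genes with such copies are uncertain.

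**Figure D2:**
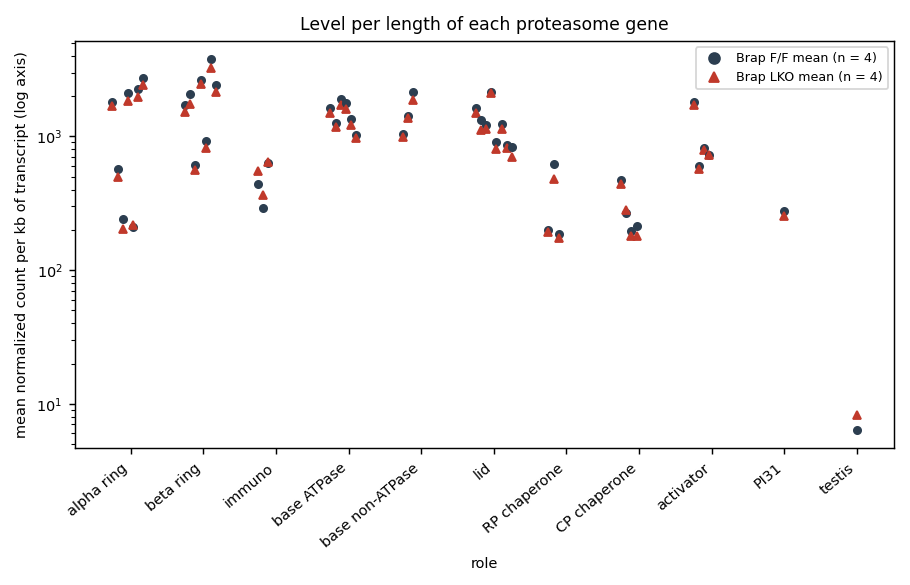
Mean normalized count per kilobase of transcript on a log axis for each of the 47 genes, by role, with circles for Brap F/F and triangles for Brap LKO (n = 4 livers each). Within a gene the groups lie close together, and differences between genes of a role, such as 211 to 2721 in the Brap F/F alpha ring, are far wider.

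The promoters of the members were searched for short motifs, chosen after earlier results were known, on both strands of RefSeq windows running from 250 bases before to 50 after the start site (GRCm38.p6). Windows were found for 39 of the 47 genes, 42 windows in all, among 32841 mouse windows. The core of the antioxidant response element, TGACNNNGC, which NRF1 and NRF2 can bind, stood in 14.3% of member windows and 12.4% of all windows. The NF-Y box CCAAT stood in 31.0% and 37.4%, and the interferon-stimulated response core GAAANNGAAA in 11.9% (5 windows) and 3.44%. The ETS core CCGGAAG was in 35.7% of member windows, 15 windows of 14 genes, beside 8.86% of all windows. No match overlapped a match of a different motif. These are matches of letters, and binding was not measured.

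The beta ring holds the cutting sites. The 7 constitutive members all had a log2 fold change below 0 (median -0.17). In 5 of them every Brap LKO liver lay below every Brap F/F liver, beside 4.39% of all tested genes. Under same-total scaling 5 of the 7 were below 0, and the groups of every member overlapped. The windows of Psmb5 (chr14:54617946-54618245, minus strand) and Psmb6 (chr11:70525107-70525406, plus strand) are shown because each carried an antioxidant response core, marked in capitals, just before the start site. Both are read 5′ to 3′ on the strand of the gene.
Psmb5: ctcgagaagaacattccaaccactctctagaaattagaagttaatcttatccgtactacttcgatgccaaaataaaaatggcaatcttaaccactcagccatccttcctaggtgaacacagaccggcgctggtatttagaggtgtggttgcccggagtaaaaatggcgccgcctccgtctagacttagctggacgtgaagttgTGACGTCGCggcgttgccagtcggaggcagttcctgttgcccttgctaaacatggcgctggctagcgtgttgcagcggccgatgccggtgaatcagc
Psmb6: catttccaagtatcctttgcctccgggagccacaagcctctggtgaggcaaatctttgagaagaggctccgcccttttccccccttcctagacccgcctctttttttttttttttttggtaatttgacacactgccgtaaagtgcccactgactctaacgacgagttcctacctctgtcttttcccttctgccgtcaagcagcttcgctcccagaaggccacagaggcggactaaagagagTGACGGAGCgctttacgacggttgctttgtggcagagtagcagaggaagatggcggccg
In Psmb5 the core began 47 bases before the start site, and in Psmb6 it began 9 bases before it. Psmb7 is named only.

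Psmb6, the caspase-like subunit, measured 2425, 2742, 2601 and 2555 normalized counts across Brap LKO replicates 1 to 4 and 3036, 3219, 2980.2 and 2809 across Brap F/F replicates 1 to 4. Every Brap LKO liver was below every Brap F/F liver. For Psmb6 the log2 fold change was -0.22 (SE 0.067, 95% CI -0.37 to -0.072, limma adjusted p = 0.167). Psmb7, the trypsin-like subunit, measured 2308, 2592, 2539 and 2480.5 normalized counts across Brap LKO replicates 1 to 4 and 2699.9, 2979.8, 2795 and 2750.3 across Brap F/F replicates 1 to 4. The groups were again apart, with Brap LKO replicate 1 lowest and Brap F/F replicate 2 highest. For Psmb7 the log2 fold change was -0.18 (SE 0.063, 95% CI -0.32 to -0.036, limma adjusted p = 0.228). Psmb5, the chymotrypsin-like subunit, measured 739, 769, 773 and 672 normalized counts across Brap LKO replicates 1 to 4 and 797, 888, 810.5 and 824 across Brap F/F replicates 1 to 4. These groups did not overlap either, and here Brap LKO replicate 4 was lowest. For Psmb5 the log2 fold change was -0.17 (SE 0.072, 95% CI -0.33 to -0.0081, limma adjusted p = 0.298). Under same-total scaling the estimates were -0.065 for Psmb6, -0.021 for Psmb7 and -0.013 for Psmb5, and the groups overlapped in each. Relative to the median of all genes under that scaling they were -0.21, -0.17 and -0.16. Psmb7 shares 11.8% of its exon bases with Nek6 on the opposite strand, and whether counting used strand is not given in the sources used here, so its count is uncertain to that extent.

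Among the other beta subunits, Psmb2 (-0.25) and Psmb1 (-0.16) had groups that did not overlap, while Psmb3 (-0.12) and Psmb4 (-0.11) had groups that did. Adjusted p over the 7 beta subunits was 0.167 at the lowest. In the alpha ring, 6 of 7 genes were below 0 (median -0.19), and under same-total scaling 5 were. Psma3 had the largest fitted difference of the ring. It measured 509, 580.2, 659.6 and 567 normalized counts across Brap LKO replicates 1 to 4 and 697, 629.5, 713 and 726 across Brap F/F replicates 1 to 4. The ranges touched, since Brap LKO replicate 3 exceeded Brap F/F replicate 2. For Psma3 the log2 fold change was -0.26 (SE 0.091, 95% CI -0.46 to -0.054, limma adjusted p = 0.226). Psma2, Psma6 and Psma7 had groups that did not overlap, with log2 fold changes of -0.21, -0.21 and -0.17. Of all tested genes 4.39% had every Brap LKO liver below every Brap F/F liver. Under same-total scaling the groups of Psma2, Psma6 and Psma7 overlapped. Psma4 (-0.19) and Psma1 (-0.099) overlapped, and Psma5 was the only ring member above 0, at 0.037. Psma8 measured 21.9, 7.65, 21.2 and 5.20 normalized counts across Brap LKO replicates 1 to 4 and 11.4, 6.10, 4.20 and 21.6 across Brap F/F replicates 1 to 4. Each group held high and low livers. For Psma8 the log2 fold change was 0.35 (SE 0.57, 95% CI -0.94 to 1.64, limma adjusted p = 0.795), and it ran from 0.031 without Brap F/F replicate 3 to 0.74 without Brap F/F replicate 4.

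**Figure D3:**
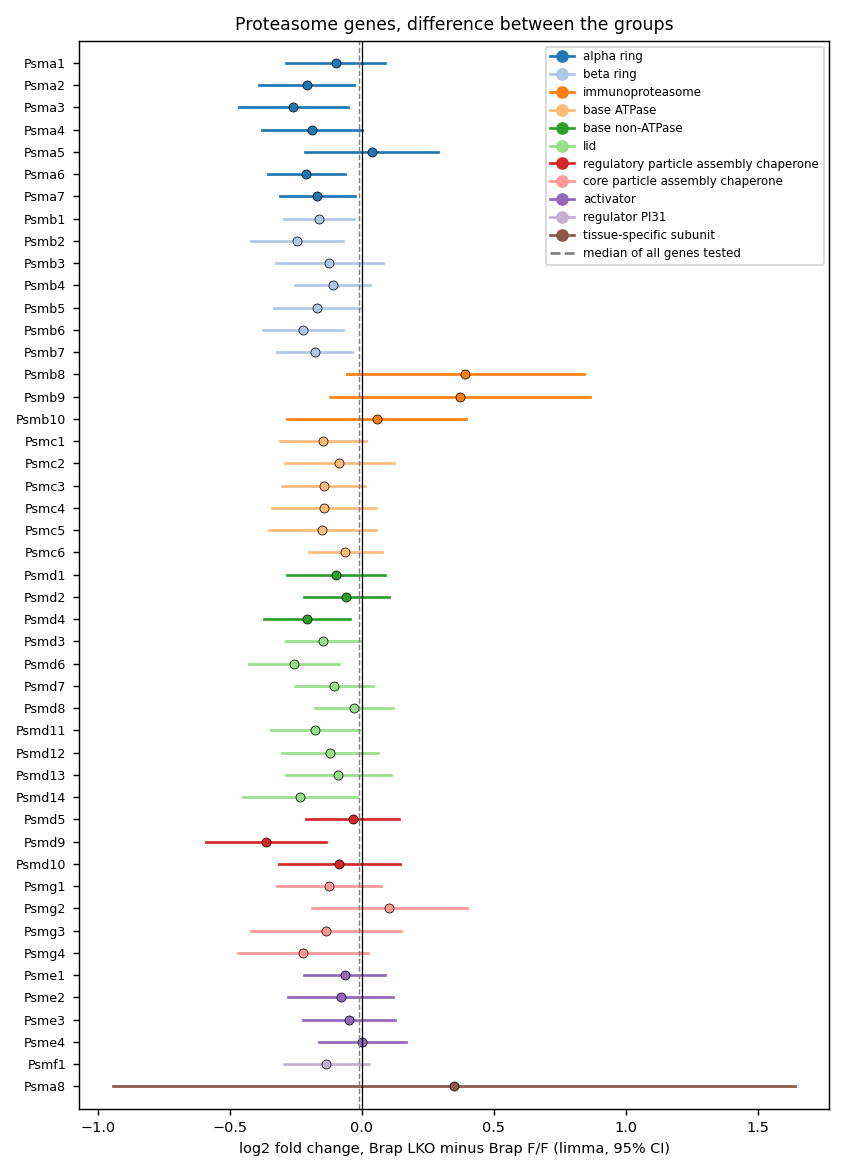
Points are limma log2 fold changes (Brap LKO minus Brap F/F, 4 livers each) of the 47 genes under the deposited size factors, bars are 95% confidence intervals and colours are roles. Of the 44 genes outside the immunoproteasome 40 lie left of 0 (16 under scaling to the same total per liver), Psmd9 lies furthest left, and Psmb8 and Psmb9 lie to the right with intervals that include 0.

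The regulatory particle showed the same narrow range. All 17 base and lid genes had log2 fold changes below 0, from -0.26 to -0.030, with a median of -0.14, although under same-total scaling 0 of the 6 base ATPases, 1 of the 3 other base genes and 3 of the 8 lid genes were below 0. The ATPases Psmc1 to Psmc6, which thread the substrate into the core, ran from -0.15 (Psmc5) to -0.063 (Psmc6). Only Psmc1 among the ATPases had groups that did not overlap, beside 4.39% of all tested genes with Brap LKO lower. By limma 0 of 6 reached an unadjusted p under 0.05, beside 6.59% of all tested genes lower. In the rest of the base, Psmd4, a receptor for ubiquitin chains, had a log2 fold change of -0.21 and groups that did not overlap. The scaffold subunits Psmd1 and Psmd2 had values of -0.097 and -0.058.

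In the lid 4 of 8 genes had an unadjusted p under 0.05, all lower, beside 6.59% of all tested genes, and 2 of them, Psmd3 and Psmd6, had groups that did not overlap, beside 4.39%. Over all 47 genes the count at the unadjusted threshold was 15, and 5 without Brap LKO replicate 1, where the share of all tested genes is not reported. The Psmd6 window (chr14:14120896-14121195, minus strand, 5′ to 3′) is shown because this gene had the largest lid estimate and its window carried the ETS core, in capitals, 45 bases before the start site.
Psmd6: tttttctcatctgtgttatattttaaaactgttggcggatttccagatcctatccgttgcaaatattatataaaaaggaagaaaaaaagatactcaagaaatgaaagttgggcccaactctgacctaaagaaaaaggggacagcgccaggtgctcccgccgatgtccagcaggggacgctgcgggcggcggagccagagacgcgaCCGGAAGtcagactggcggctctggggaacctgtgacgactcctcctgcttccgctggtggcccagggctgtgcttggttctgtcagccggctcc
Psmd6, a structural lid subunit, measured 1409, 1485, 1613 and 1655 normalized counts across Brap LKO replicates 1 to 4 and 1908, 1786, 1702 and 1963 across Brap F/F replicates 1 to 4. Brap LKO replicate 1 was lowest and Brap F/F replicate 4 highest. For Psmd6 the log2 fold change was -0.26 (SE 0.076, 95% CI -0.43 to -0.086, limma adjusted p = 0.163). Psmd14, the deubiquitinase that strips ubiquitin from the substrate, had a log2 fold change of -0.23, with Brap LKO at 1010.2 to 1185 and Brap F/F at 1128 to 1484. The values of Psmd11 and Psmd3 were -0.18 and -0.15. The remaining lid genes, Psmd7, Psmd8, Psmd12 and Psmd13, lay between -0.12 and -0.030 with overlapping groups.

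Psmd9, a chaperone that helps to assemble the base, had the lowest adjusted p of all 47 genes. Its window (chr5:123227940-123228239, plus strand, 5′ to 3′) is shown for that reason, with an interferon-stimulated response core 159 bases before the start site and an antioxidant response core 31 bases before it in capitals. This RefSeq window lies inside the annotated gene (123169413-123250131).
Psmd9: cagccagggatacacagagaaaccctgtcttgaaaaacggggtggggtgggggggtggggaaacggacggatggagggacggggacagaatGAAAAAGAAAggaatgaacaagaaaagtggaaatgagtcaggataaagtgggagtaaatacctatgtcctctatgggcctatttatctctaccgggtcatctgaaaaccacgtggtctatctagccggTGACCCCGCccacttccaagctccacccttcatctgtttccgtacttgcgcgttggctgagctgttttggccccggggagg
Psmd9 measured 1227, 1267, 1298 and 1179 normalized counts across Brap LKO replicates 1 to 4 and 1458, 1982, 1540.0 and 1469 across Brap F/F replicates 1 to 4. All Brap LKO livers were below all Brap F/F livers, and Brap F/F replicate 2 stood above its group. For Psmd9 the log2 fold change was -0.36 (SE 0.10, 95% CI -0.59 to -0.14, limma adjusted p = 0.138). DESeq2 gave -0.37 with an adjusted p of 0.0458. Without Brap F/F replicate 2 the limma estimate was -0.26, with an adjusted p of 0.174. Psmd9 shares 25.5% of its annotated exon bases with the antisense gene Gm26745. The base chaperones Psmd10 (gankyrin) and Psmd5 had estimates of -0.086 and -0.034, with overlapping groups. Under same-total scaling only Psmd9 of the 3 was below 0.

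The chaperones Psmg1 to Psmg4 build the alpha ring, in the pairs Psmg1 with Psmg2 and Psmg3 with Psmg4. Psmg4 measured 102, 109.6, 96.1 and 94.6 normalized counts across Brap LKO replicates 1 to 4 and 129, 112, 116 and 114 across Brap F/F replicates 1 to 4. Every Brap LKO liver was below every Brap F/F liver, by little between Brap LKO replicate 2 and Brap F/F replicate 2. For Psmg4 the log2 fold change was -0.22 (SE 0.11, 95% CI -0.47 to 0.024, limma adjusted p = 0.361). Psmg1 measured 482, 482, 463 and 398 normalized counts across Brap LKO replicates 1 to 4 and 489, 533, 504 and 460.2 across Brap F/F replicates 1 to 4. Psmg3 measured 164, 169.9, 165 and 134 normalized counts across Brap LKO replicates 1 to 4 and 151, 196, 162 and 188 across Brap F/F replicates 1 to 4. In both genes Brap LKO replicate 4 was lowest and the groups overlapped. Their log2 fold changes were -0.12 (SE 0.088, 95% CI -0.32 to 0.073, limma adjusted p = 0.516) for Psmg1 and -0.14 (SE 0.13, 95% CI -0.42 to 0.15, limma adjusted p = 0.623) for Psmg3. Psmg2 measured 278, 313, 292 and 316 normalized counts across Brap LKO replicates 1 to 4 and 319, 250.2, 228 and 331 across Brap F/F replicates 1 to 4. Its highest and lowest livers were both Brap F/F. For Psmg2 the log2 fold change was 0.10 (SE 0.13, 95% CI -0.19 to 0.40, limma adjusted p = 0.722), the only estimate above 0 among the 4. Without Brap F/F replicate 3 it was 0.0074, and leaving out each of the other Brap F/F livers moved it within 0.052 to 0.19. Without Brap LKO replicate 4 the values of Psmg1 and Psmg3 were -0.060 and -0.059, and without Brap F/F replicate 2 that of Psmg3 was -0.076. Under same-total scaling 1 of the 4, Psmg4, was below 0.

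The activators open the core particle in place of the regulatory particle. Psme1 and Psme2, the interferon-inducible pair, measured 1881, 1922, 1969.8 and 1882 normalized counts across Brap LKO replicates 1 to 4 and 2182, 2079, 1902 and 1860.4 across Brap F/F replicates 1 to 4 for Psme1, and 547, 571, 591 and 489 normalized counts across Brap LKO replicates 1 to 4 and 629, 579, 518 and 597 across Brap F/F replicates 1 to 4 for Psme2. Brap F/F replicate 1 was the highest liver in both, and the groups overlapped. For Psme1 the log2 fold change was -0.065 (SE 0.068, 95% CI -0.22 to 0.087, limma adjusted p = 0.662). For Psme2 it was -0.080 (SE 0.089, 95% CI -0.28 to 0.12, limma adjusted p = 0.682). Psme3, the nuclear activator, measured 1947, 2093, 2075 and 2301 normalized counts across Brap LKO replicates 1 to 4 and 2414, 2046, 2072 and 2180.2 across Brap F/F replicates 1 to 4. Psme4, a large activator tied to chromatin, measured 4472, 4347, 4850.1 and 5058 normalized counts across Brap LKO replicates 1 to 4 and 4744, 4317, 4748 and 4888 across Brap F/F replicates 1 to 4. Neither gene separated the groups. For Psme3 the log2 fold change was -0.049 (SE 0.078, 95% CI -0.22 to 0.12, limma adjusted p = 0.783). For Psme4 the estimate was 0.0011 (SE 0.073, 95% CI -0.16 to 0.17, limma adjusted p = 0.995). All 4 activators were above 0 under same-total scaling, and 3 of the 4 were below the median of all genes. Psmf1, which encodes the regulator PI31, measured 926, 1030.5, 1007 and 898 normalized counts across Brap LKO replicates 1 to 4 and 989, 1075, 1114 and 1058 across Brap F/F replicates 1 to 4. Its groups overlapped. For Psmf1 the log2 fold change was -0.13 (SE 0.071, 95% CI -0.29 to 0.026, limma adjusted p = 0.391).

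The immunoproteasome subunits had estimates of the other sign and a wider spread between livers. All 3 had estimates above 0 under each of the scalings tried, and none passed the adjusted threshold. The windows of Psmb8 (chr17:34197945-34198244, plus strand), Psmb9 (chr17:34187281-34187580, minus strand) and Psmb10 (chr8:105938343-105938642, minus strand) are shown 5′ to 3′ so that they can be set beside those of Psmb5 and Psmb6. Capitals mark the NF-Y box of Psmb9, on the opposite strand, the only match of the 4 motifs in the 3 windows. The RefSeq windows of Psmb8 and Psmb9 lie inside the annotated genes (34197721-34201454 and 34181987-34187764). Bases before the annotated starts of these genes were therefore not searched, and the absence of a match does not cover them.
Psmb8: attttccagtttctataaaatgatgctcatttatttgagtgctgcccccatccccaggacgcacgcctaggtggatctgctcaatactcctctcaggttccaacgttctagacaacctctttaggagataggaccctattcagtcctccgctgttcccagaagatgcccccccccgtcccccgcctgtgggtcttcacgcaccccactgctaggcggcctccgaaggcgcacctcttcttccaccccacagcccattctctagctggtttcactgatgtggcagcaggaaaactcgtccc
Psmb9: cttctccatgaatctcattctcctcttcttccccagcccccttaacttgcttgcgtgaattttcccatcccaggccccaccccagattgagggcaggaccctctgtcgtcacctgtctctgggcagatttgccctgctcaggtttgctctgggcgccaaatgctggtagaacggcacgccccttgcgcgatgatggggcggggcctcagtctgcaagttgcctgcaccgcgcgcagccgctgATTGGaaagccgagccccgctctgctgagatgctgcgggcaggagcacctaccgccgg
Psmb10: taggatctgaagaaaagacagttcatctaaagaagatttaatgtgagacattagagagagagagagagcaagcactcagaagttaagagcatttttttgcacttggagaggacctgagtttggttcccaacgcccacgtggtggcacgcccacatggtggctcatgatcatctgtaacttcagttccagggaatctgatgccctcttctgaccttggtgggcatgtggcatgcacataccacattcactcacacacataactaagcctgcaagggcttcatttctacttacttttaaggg
Psmb8 and Psmb9 lie near each other on chromosome 17, in the MHC region, and Psmb9 adjoins Tap1, with which it shares 5.79% of its exon bases on the opposite strand. Psmb8 shares 14.7% with the antisense gene Gm20496.

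Psmb8, which replaces Psmb5, measured 942, 929, 802 and 943 normalized counts across Brap LKO replicates 1 to 4 and 1026, 617, 474 and 744 across Brap F/F replicates 1 to 4. The 4 Brap LKO livers were close together, with replicate 3 lowest, and Brap F/F replicate 1 was the highest of the 8. For Psmb8 the log2 fold change was 0.39 (SE 0.20, 95% CI -0.058 to 0.84, limma adjusted p = 0.376), and without Brap F/F replicate 3 it was 0.21. Psmb9, which replaces Psmb6, measured 606, 522, 411 and 435 normalized counts across Brap LKO replicates 1 to 4 and 543, 267, 316 and 439 across Brap F/F replicates 1 to 4. Brap F/F replicates 2 and 3 were again the lowest livers. For Psmb9 the log2 fold change was 0.37 (SE 0.22, 95% CI -0.12 to 0.86, limma adjusted p = 0.439), and without Brap F/F replicate 2 it was 0.21. Psmb10, which replaces Psmb7, measured 867, 898, 803 and 815 normalized counts across Brap LKO replicates 1 to 4 and 1066, 665, 665 and 925 across Brap F/F replicates 1 to 4. Its highest and lowest livers were all Brap F/F. For Psmb10 the log2 fold change was 0.056 (SE 0.15, 95% CI -0.28 to 0.39, limma adjusted p = 0.878). The spread within groups (SD, log2 scale) was 0.34, 0.37 and 0.25 for Psmb8, Psmb9 and Psmb10, beside a median of 0.10 for the other 44 genes and 0.21 for all tested genes.

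Ratios of each immune subunit to the constitutive subunit it replaces use genes of 1 liver, so they do not depend on its size factor. The ratio of Psmb8 to Psmb5 was 1.27, 1.21, 1.04 and 1.40 in Brap LKO replicates 1 to 4 and 1.29, 0.695, 0.585 and 0.902 in Brap F/F replicates 1 to 4. Brap F/F replicate 1 lay among the Brap LKO livers and the other Brap F/F livers below all of them. The ratio was 1.48-fold higher in Brap LKO (two-sided exact permutation p = 0.114, 0.171 adjusted over 3 ratios). For Psmb9 to Psmb6 the ratio was 0.250, 0.190, 0.158 and 0.170 in Brap LKO and 0.179, 0.0831, 0.106 and 0.156 in Brap F/F. It was 1.51-fold higher in Brap LKO (exact permutation p = 0.114, adjusted 0.171). For Psmb10 to Psmb7 it was 0.376, 0.346, 0.316 and 0.329 against 0.395, 0.223, 0.238 and 0.336, or 1.18-fold higher (exact permutation p = 0.371, adjusted 0.371). The smallest p that 4 livers against 4 allow is 0.0286. The folds depended on single Brap F/F livers, in both directions. Without Brap F/F replicate 1, the control with the highest ratios, they were 1.71, 1.70 and 1.30 (exact permutation p = 0.0286, 0.0286 and 0.0857, adjusted 0.0429, 0.0429 and 0.0857). Without Brap F/F replicate 2 they were 1.39, 1.32 and 1.08 (exact permutation p = 0.2, 0.171 and 0.771, adjusted 0.3, 0.3 and 0.771). Without Brap F/F replicate 3 they were 1.31, 1.43 and 1.10 (exact permutation p = 0.2, 0.171 and 0.714, adjusted 0.3, 0.3 and 0.714). On the log2 scale the Psmb10 to Psmb7 difference of 0.23 ran from 0.11 to 0.38 over the 8 livers left out in turn.

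**Figure D4:**
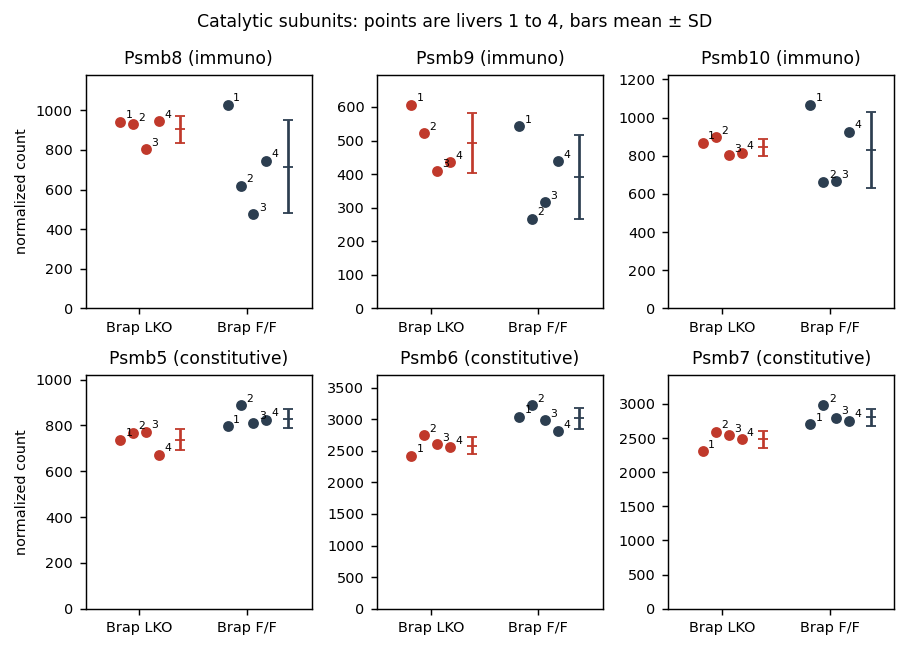
Normalized counts of the immune catalytic subunits (top) and the constitutive subunits they replace (bottom), with each point a liver numbered by replicate and bars giving mean ± SD (n = 4). Under the deposited size factors the Brap LKO points lie below the Brap F/F points in all 3 lower panels (not under scaling to the same total per liver), and in the upper panels Brap F/F replicate 1 lies at or above most Brap LKO points while Brap F/F replicates 2 and 3 lie lowest.

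The animal numbers in the labels split unevenly between the groups: Brap LKO replicates 1 to 3 and Brap F/F replicate 1 fell in a lower run, the other livers in a higher one. With this split as a covariate the log2 fold changes of Psmb8, Psmb9 and Psmb10 were 0.22, 0.14 and -0.091, and the median of the other 44 genes was -0.12, with 41 below 0. The unadjusted count of lower proteasome genes was then 7, and the share of all tested genes in this fit is not reported here. Within the lower run Psmb8 was higher in the lone Brap F/F liver than in all 3 Brap LKO livers, and within the higher run it was higher in the lone Brap LKO liver than in all 3 Brap F/F livers.

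Genes of interferon signalling and antigen processing were set beside the immunoproteasome. Of 11 such genes, 10 had estimates above 0 (median 0.11, against -0.010 for all tested genes) and 0 passed the adjusted threshold. By limma 1, Irf8, was higher at an unadjusted p under 0.05, beside 9.23% of all tested genes. Irf1, the transcription factor that drives immunoproteasome genes, measured 982, 877, 767 and 866 normalized counts across Brap LKO replicates 1 to 4 and 837, 486, 489 and 859.5 across Brap F/F replicates 1 to 4. Tap1, the peptide transporter, measured 1297, 1079, 874 and 975 normalized counts across Brap LKO replicates 1 to 4 and 1217, 669, 684 and 1013 across Brap F/F replicates 1 to 4. In both genes Brap F/F replicates 2 and 3 were lowest, as they were for Psmb9, and the groups overlapped. For Irf1 the log2 fold change was 0.43 (SE 0.20, 95% CI -0.017 to 0.89, limma adjusted p = 0.334). For Tap1 it was 0.27 (SE 0.20, 95% CI -0.19 to 0.73, limma adjusted p = 0.539). B2m, the most abundant of the list, had a value of 0.087 (adjusted p = 0.73). The summed level of the list was 103335 to 109110 in Brap LKO and 88184 to 108147 in Brap F/F.

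Leukocytes express the immunoproteasome, and most of their markers had positive estimates. Of 20 leukocyte markers 19 had estimates above 0 (median 0.58, against -0.010 for all tested genes). They were not compared with genes of similar abundance. By limma 1 passed the adjusted threshold, beside 0.664% of all tested genes called higher. It was the dendritic cell and macrophage integrin Itgax, at 39.5 to 84.7 normalized counts in Brap LKO and 15.8 to 21.7 in Brap F/F. For Itgax the log2 fold change was 1.52 (SE 0.26, 95% CI 0.93 to 2.10, limma adjusted p = 0.0402). The summed level of the list was 3914 to 6677 in Brap LKO and 3897 to 5024 in Brap F/F, and Klrb1c was at 0 in 1 liver. The mean deviation of the list was 0.50, 0.22, -0.068 and 0.54 in Brap LKO replicates 1 to 4 and -0.036, -0.59, -0.47 and -0.10 in Brap F/F replicates 1 to 4. Brap F/F replicates 2 and 3, the low livers for Psmb8, Psmb9 and Psmb10, were also the low livers here. Brap LKO replicate 1, the highest liver for Psmb9, was high in this list too. Brap F/F replicate 1, the highest for Psmb8 and Psmb10, had a mean deviation just below 0 and a median deviation of -0.14. The part of leukocytes in the immunoproteasome values was not tested.

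**Figure D5:**
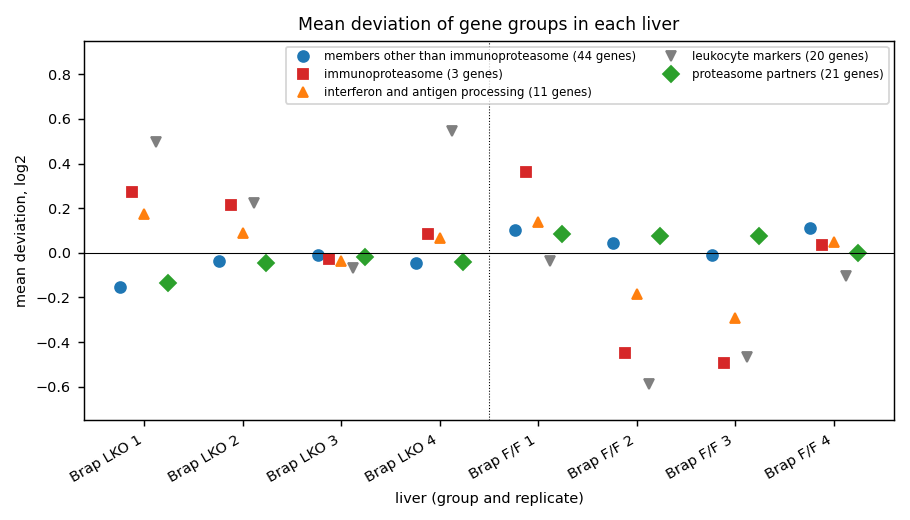
Mean deviation from the 8-liver mean of log2(normalized count + 1), by liver and under the deposited size factors, for the 44 proteasome genes outside the immunoproteasome, the 3 immunoproteasome genes and 3 other gene lists. The immunoproteasome and interferon points are lowest in Brap F/F replicates 2 and 3, whereas the 44 other proteasome genes and their partners are lowest in Brap LKO replicate 1, though under same-total scaling the 44 genes are lowest in Brap F/F replicate 3.

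Other non-parenchymal markers also had positive estimates. All 5 cholangiocyte markers (median 0.95) and all 5 endothelial markers (median 0.26) were above 0 with 0 past the adjusted threshold. Of 5 stellate and fibroblast markers 4 were above 0 (median 0.91), and 1, Pdgfrb, passed (0.91, limma adjusted p = 0.0494). Of all tested genes 0.664% were called higher. Their summed levels in Brap LKO and Brap F/F livers were 1343 to 2997 and 716 to 1484 for cholangiocyte markers, 4571 to 6648 and 3966 to 5760 for endothelial markers, and 5094 to 7697 and 3589 to 5195 for stellate and fibroblast markers. Of 9 hepatocyte markers 6 were below 0 (median -0.18, but 0.088 after quantile normalization), and 0 passed. Their summed levels were 2.46e+06 to 3.15e+06 in Brap LKO and 2.92e+06 to 4.04e+06 in Brap F/F, and Alb took 5.17% to 7.41% of the reads in Brap LKO and 6.45% to 9.34% in Brap F/F. The part of cell composition in the proteasome estimates was not tested.

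Partners of the proteasome had estimates of similar size. Of 21 genes for associated receptors, deubiquitinases, shuttles and regulators, 18 had log2 fold changes below 0 (median -0.15), beside 52.0% of all tested genes and 67.3% of those with a mean of at least 500. Under same-total scaling 9 of the 21 were below 0, and 18 were below the median of all genes. By limma 0 passed the adjusted threshold and 9 had an unadjusted p under 0.05, all lower, beside 6.59% of all tested genes. In 7 of the 21 the groups did not overlap with Brap LKO lower, beside 4.39% of all tested genes. In 1, the shuttle Ubqln2, they did not overlap with Brap LKO higher, beside 5.48% of all tested genes. Nfe2l1, which encodes NRF1, measured 4206, 4666, 4739 and 4737 normalized counts across Brap LKO replicates 1 to 4 and 5925, 5383, 5317 and 4630.3 across Brap F/F replicates 1 to 4. Brap LKO replicate 1 was lowest and Brap F/F replicate 1 highest, and Brap F/F replicate 4 lay within the Brap LKO range. For Nfe2l1 the log2 fold change was -0.21 (SE 0.086, 95% CI -0.40 to -0.016, limma adjusted p = 0.287). Ddi2, the protease that releases NRF1, and Ngly1, the glycanase that processes it, had values of -0.096 and -0.18 (adjusted p = 0.518 and 0.219). Pomp, the chaperone that completes the core particle, had a value of -0.061 (adjusted p = 0.746). Vcp, the ATPase that delivers ubiquitylated proteins, had a value of -0.15 (adjusted p = 0.277).

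Of the genes for ubiquitin and its activating enzymes, 5 were examined. All 5 had estimates below 0 (median -0.074), and 1 of the 5 was below 0 under same-total scaling. By limma 0 passed the adjusted threshold and 1 was lower at an unadjusted p under 0.05, beside 6.59% of all tested genes. Uba1, the main activating enzyme and the most abundant of the list, had a log2 fold change of -0.068 (limma adjusted p = 0.637).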

How the data were processed

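RNA was measured in 8 livers, 4 Brap LKO and 4 Brap F/F, as single-end reads of 50 bases. Per the submitters' processing notes, FastQC, STAR 2.6.0c, DESeq2 and the mm10 build were used, and the counting tool and its use of strand are not given in the sources used here. The deposited signal values are the reads per gene divided by a DESeq2 size factor, and the authors' columns of their own comparison (fold changes and p-values) were not used. Dividing by the value of 1 read gave whole reads for 100% of values, within 0.01 of a read. The number of value columns left out was 0. Values were analysed as log2(normalized count + 1), so fold changes of low genes are understated, with limma 3.58.1 (trend) in R 4.3.3 and Benjamini-Hochberg adjustment over all 15352 genes with a mean of at least 5. Recovered reads were tested with edgeR 4.0.16 and DESeq2 1.42.0 as alternatives. Ratios were compared by two-sided exact permutation over 70 arrangements. The fitting script was tested on simulated data. Values by liver are given for the catalytic subunits, activators, Psmf1, Psmg1 to Psmg4, any gene past the threshold and the 3 largest fitted rises and falls. Of the other lists, genes past the threshold and the most abundant were named by rule, and Irf1, Irf8, Tap1, Klrb1c, Alb, Ubqln2, Nfe2l1, Ddi2, Ngly1, Pomp and Vcp, like the other proteasome members given by fold change, were chosen with their values known. A further gene of the lists is not reported here. The members and lists were chosen with earlier results of these data known. Gene models came from GENCODE vM21 and promoters from RefSeq. Alternatives were other pseudocounts, filters, scalings, a replicate block, the animal number series and leaving out each liver. Values per kilobase use the transcript with the longest coding sequence, and the longest transcript among ties. With 4 livers per group, p-values rest on the spread between these mice.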

Additional observations from a re-analysis of the deposited data

Results flagged for a closer look

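Within each group of 4 livers, the highest or lowest value of a gene was flagged when its gap to the next liver took up more than 0.829 of the range of the group. Of 94 groups examined (47 genes in 2 groups), 6 met this, where chance gives about 4.7 (1 in 20). Psma5 in Brap LKO replicate 1 measured 228 normalized counts, below 279 to 284 in the other Brap LKO livers. Psmd7 in the same liver measured 1648, below 1822 to 1855. Psmb8 in Brap LKO replicate 3 measured 802, below 929 to 943. Psmg3 in Brap LKO replicate 4 measured 134, below 164 to 169.9. Psmd9 in Brap F/F replicate 2 measured 1982, above 1458 to 1540.01. Psmc1 in Brap F/F replicate 3 measured 2706, above 2562 to 2584. The causes were not tested.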

How the results depend on the processing

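Over 19 alternative settings, 0 proteasome genes passed the adjusted threshold by limma or edgeR, and DESeq2 called 1, Psmd9 (log2 fold change -0.37, adjusted p = 0.0458). DESeq2 called 455 of all tested genes higher and 170 lower, against 102 and 16 in the limma fit, and leaving out each liver gave 11 to 178 higher and 4 to 54 lower. The median of the 44 genes outside the immunoproteasome was 0.022 under same-total scaling and between -0.15 and -0.084 in the other settings. Of 360 fits of the 19 genes given by liver under the named-gene rule, 344 kept their direction and their side of the threshold, 1 crossed it (Psmd9) and 15 changed sign, none past the threshold. None of the 19 genes passed the threshold in the main fit, and the tally did not judge size. Under same-total scaling Psmb5 went from -0.17 to -0.013 and Psmb7 from -0.18 to -0.021, and both counted as kept. Same-total scaling gave 0.092 for Psme1, 0.077 for Psme2, 0.11 for Psme3, 0.023 for Psmf1, 0.034 for Psmg1 and 0.020 for Psmg3. Psme3 was 0.0011 after quantile normalization and 0.00096 without Brap F/F replicate 1. With the animal number series as covariate Psmb10 was -0.091 and Psma8 -0.10. Leaving out each liver, Psmb10 ran from -0.040 to 0.19 (below 0 without Brap F/F replicate 2 or 3), Psmb8 from 0.21 to 0.58, Psmb9 from 0.21 to 0.55, Psma8 from 0.031 to 0.74, Psmg1 from -0.16 to -0.060, Psmg2 from 0.0074 to 0.19, Psmg3 from -0.20 to -0.059, Psme1 from -0.10 to -0.023, Psme2 from -0.13 to -0.025, Psme3 from -0.093 to 0.00096, and Psme4 from -0.037 to 0.036 (below 0 without replicate 3 or 4 of Brap LKO, or replicate 2 of Brap F/F). Leave-one-out values of the log2 difference of the Psmb8 to Psmb5 ratio ran from 0.39 to 0.77 and those of Psmb9 to Psmb6 from 0.40 to 0.76, with the upper end of both, exact permutation p = 0.0286 before adjustment, without Brap F/F replicate 1. The causes were not tested.

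Same-numbered livers of the groups correlated at -0.13, 0.0034, 0.20 and 0.29 in their deviations. Differently numbered livers were not compared, so these values cannot tell whether the numbers pair the livers. With a replicate block the median of the 44 genes was -0.14, 0 proteasome genes passed, and 80 of all tested genes were called higher and 15 lower. Psma8 had few reads, at most 21.9 normalized counts in a liver.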
